A study of Rattus norvegicus with 547 samples.

Results

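Wy-14643 (labelled Wy) was given to cultivated rat hepatocytes at 3 concentrations, 60.05 µM (low), 180.14 µM (middle) and 540.43 µM (high). The members are the 18 arrays with this compound's label, 3 treated and 3 solvent control arrays at each concentration. The whole series holds 257 treated arrays, 256 solvent control arrays and 34 of cells at the start of incubation. The cells came from male Wistar rats and were kept as sandwich cultures, between layers of matrix, for 24 h with compound or with solvent alone. Each replicate was a different rat, and treated and control cells of a replicate shared 6-well dishes, so a treated array and the control array of its number were taken as 1 dish (9 dishes in all). The labels put the compound among the non-genotoxic ones, and do not name the solvent, the rats' age or how many cells were alive after treatment. The comparison asked which effects grew with concentration and which were present at a lower concentration and lost at the high one.

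Wy-14643 is a synthetic agonist of PPARα, a nuclear receptor that is activated by fatty acids and their derivatives in the liver. With its partner RXR the activated receptor binds response elements near genes of fatty acid uptake, acyl-CoA hydrolysis, peroxisomal and mitochondrial β-oxidation and ω-hydroxylation, and raises their transcription. In rats and mice such agonists enlarge the liver and multiply its peroxisomes, which gave the class the name peroxisome proliferators. No table at hand ties the array's probe sets to genes. Probe sets are therefore given by ID, apart from the rise called leading below, whose ID is shown in the plot of levels. No pathway can be assigned to them, and the hepatocyte label was not set against marker genes.

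Values are log2 expression levels, so a difference of 1 is a 2-fold change. The medians of the 18 arrays lay between 5.41 and 5.53, within the 5.24 to 5.76 of the whole series. Control array 1 of the high concentration stood apart from the other controls. Its median correlation with the other 8 control arrays was 0.987, the lowest of the 9, against 0.995 and 0.994 for high controls 2 and 3. Control array 2 of the low concentration had a difference of 2.32 between the 3′ and 5′ probe sets of GAPDH, a sign of shortened RNA, while the other 17 arrays lay between 0.37 and 0.76. Control array 1 of the low concentration had a mean poly-A spike-in level of 5.10, below all others. Precision is limited by the 3 dishes of a group.

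The departure of high control 1 followed the response to the low concentration, as the plot of control deviations shows. Of the 366 probe sets that rose at the low concentration, 298 (81.4%) were higher on high control 1 than on the other 5 controls of the high and middle concentrations, against 24.0% of all probe sets. Of the 286 that fell at the low concentration, 179 (62.6%) were below those 5 controls, against 22% of all. The median deviation of this array was 0.46 over the low rises and -0.42 over the low falls, while for the other 5 controls these medians lay between -0.20 and -0.07 and between -0.00 and 0.14. Why this array differs was not tested. The main counts of calls and classes and the effects of the named probe sets at the high concentration are given with all dishes and, beside these, without high dish 1. Counts of calls shared between concentrations are given with all dishes only.

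**Figure D1:**
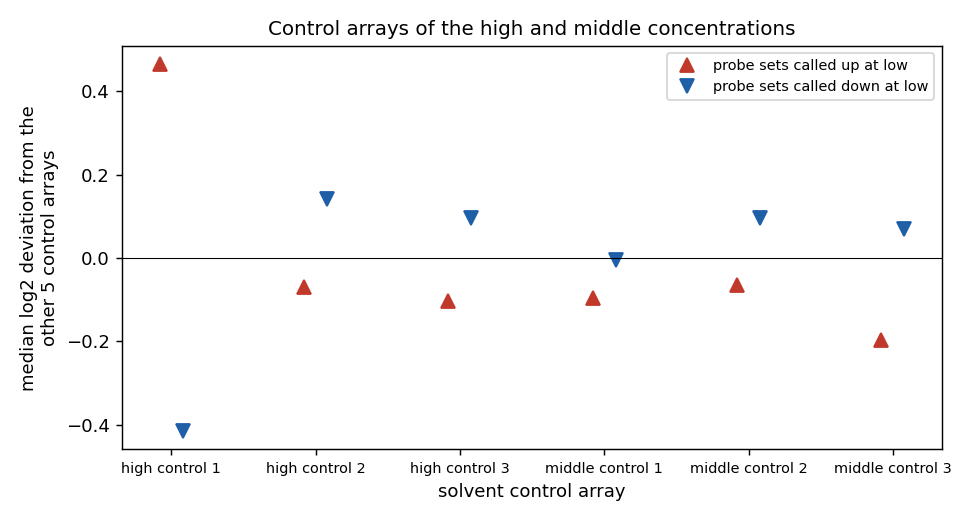
Median log2 deviation of each of the 6 solvent control arrays of the high and middle concentrations from the mean of the other 5, over probe sets called up (upward triangles) or down (downward triangles) at the low concentration. High control 1 is at 0.46 and -0.42, and the other 5 arrays lie between -0.20 and 0.14.

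The number of probe sets that changed was similar at the low and middle concentrations and much larger at the high one. A probe set is said to be called where limma, run on treated minus control of each dish, gave a Benjamini-Hochberg adjusted p under 0.05 over 31042 probe sets. At 60.05 µM 652 were called (2.1% of those tested), 366 higher (1.18%) and 286 lower (0.921%). At 180.14 µM 842 were called (2.71%), 188 higher (0.606%) and 654 lower (2.11%). At 540.43 µM 5068 were called (16.3%), 2426 higher (7.82%) and 2642 lower (8.51%). The count at the high concentration was 3216 without high dish 1, with 1333 rises and 1883 falls. Leaving out low dish 2, whose control had the wide 3′ to 5′ difference, gave 252 calls at the low concentration, with 176 rises and 76 falls. After RMA the arrays had like medians (5.41 to 5.53), so these values do not show how many cells were alive or how much mRNA a cell held. Whether cell loss has a part in the falls was not tested.

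Rises were the larger part of the large changes at low, and falls at the middle and high concentrations. Among calls of at least 2-fold, 125 were rises and 69 falls at the low concentration, 44 were rises and 156 falls at the middle one, and 176 were rises and 756 falls at the high one. The largest rise was 9.23 at the low concentration, 7.65 at the middle and 3.41 at the high one. The largest fall was -2.97, -3.55 and -5.25 in the same order. The median over all probe sets was -0.00, 0.03 and 0.06.

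The concentrations were also tested against each other, each against its own controls first. Between high and low 3087 probe sets differed (9.94%), 1245 of them higher (4.01%) and 1842 lower (5.93%) at high. Between high and middle 1174 differed (3.78%), 591 higher (1.9%) and 583 lower (1.88%) at high. These counts were 2186 and 808 without high dish 1. Between middle and low 73 differed (0.235%), 72 of them lower (0.232%) and 1 higher (0.00322%) at the middle concentration, and this count fell to 21 without low dish 2 and rose to 156 without high dish 1.

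Calls at the low concentration ran in both directions at the high one. At high 7.82% of all probe sets were called as rises and 8.51% as falls. Of the 366 rises at low, 53 were called as rises at high and 147 as falls. Of the 286 falls at low, 152 were called as falls at high and 36 as rises. These counts include high dish 1, whose control was raised over the low rises and lowered over the low falls. They were not recomputed without that dish. Calls in 1 direction at both ends thus numbered 205, which is 31.4% of the low list and 4.04% of the high list. Middle and high shared 623 calls in 1 direction, 74.0% of the middle list and 12.3% of the high list, and 38 calls were opposite. Low and middle shared 266, 40.8% and 31.6% of these lists, and 9 were opposite.

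**Figure D2:**
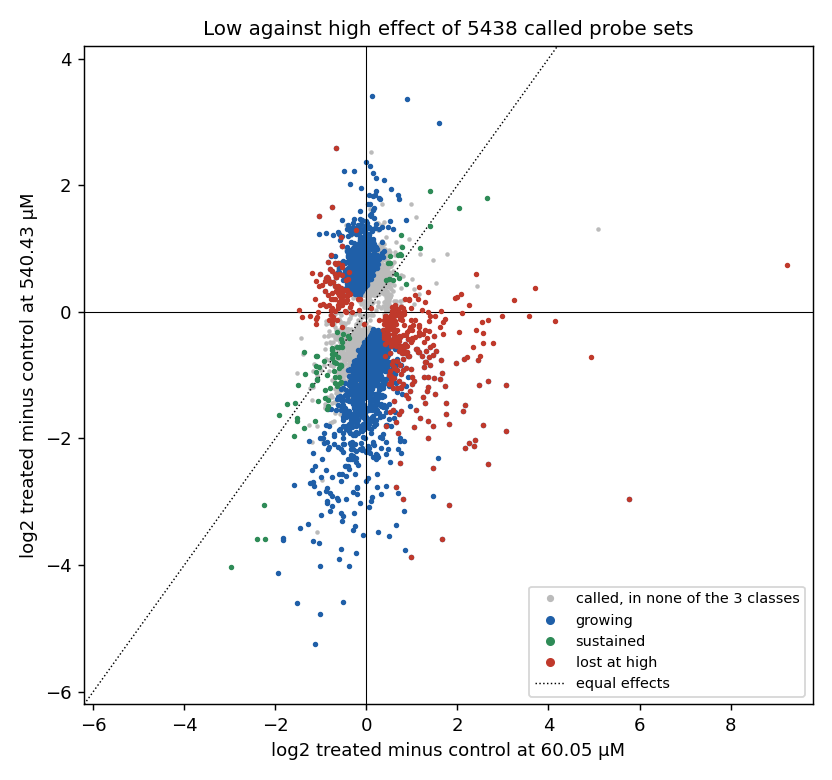
Effect at 60.05 µM (horizontal) against effect at 540.43 µM (vertical), both as log2 treated minus control, for the 5438 probe sets called at 1 or more concentrations; colours give the classes defined in the text, with lost probe sets drawn over growing ones where they are both. Lost rises spread to the right, up to 9.23, at high effects near or below 0, and growing falls reach -5.25 at low effects mostly near 0.

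Of the 5438 probe sets called at 1 or more concentrations, 2586 fell into 3 classes and 2852 into none. A probe set was counted as growing if it was called at high, differed between high and low in the direction of its high effect, and had its middle effect between those at low and high. It was counted as lost if it was called at low or middle, differed at high in the opposite direction, and was not called at high in its first direction. It was counted as sustained if it was called in 1 direction at all concentrations with no called difference between them. Because the classes use these calls, their medians and the counts of calls within them below are descriptions.

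The growing class was the largest, with 1489 falls (4.8% of probe sets tested) and 817 rises (2.63%), together 45.5% of the calls at high. The growing falls had median effects of 0.12, -0.32 and -0.88 at low, middle and high, and 628 of them fell at least 2-fold at high. The growing rises had medians of -0.15, 0.07 and 0.63, and 132 rose at least 2-fold at high. A minority of the members was called below the high concentration, and most of the calls at low ran against the direction of the class. Of all probe sets 1.18% were called up and 0.921% down at low, and 0.606% up and 2.11% down at middle. Of the 1489 growing falls, 147 were called up and 57 down at low, and 26 up and 357 down at middle. Of the 817 growing rises, 6 were called up and 35 down at low, and 35 up and 7 down at middle. Leaving out high dish 1 gave 1094 growing falls and 505 growing rises, and 1025 and 459 of these were in the classes of all dishes. The high medians of the classes of all dishes were then -0.85 and 0.61.

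The growing falls with the largest high effects were 1370019_at and 1386947_at. The probe set 1370019_at read 11.41, 11.20 and 11.50 on the low controls and 10.07, 10.20 and 10.44 on the low treated arrays of dishes 1 to 3. It read 11.20, 11.51 and 10.94 on the middle controls and 7.56, 7.85 and 7.60 on the treated arrays. It read 12.08, 11.64 and 11.65 on the high controls and 6.71, 6.50 and 6.41 on the treated arrays. All treated arrays were below all controls, and the treated arrays of the 3 concentrations did not overlap. The log2 changes were -1.13 ± 0.10 (SE, 3 dishes, limma adjusted p 1e-04), -3.55 ± 0.10 (1.31e-08) and -5.25 ± 0.10 (1.39e-10), the last a 38.0-fold fall. The differences of middle from low (-2.42 ± 0.15, limma adjusted p 5.62e-05) and of high from middle (-1.70 ± 0.15, 9.33e-05) were both called, and without high dish 1 the high effect was -5.19.

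For 1386947_at the controls lay between 9.20 and 9.93 at all concentrations. The treated arrays read 8.51, 8.38 and 8.50 at low, 7.78, 7.11 and 7.68 at middle, and 4.32, 5.29 and 4.87 at high. The 3 treated groups did not overlap and stepped down with concentration. The changes were -1.03 ± 0.16 (SE, limma adjusted p 0.00632), -2.20 ± 0.16 (3.16e-05) and -4.77 ± 0.16 (1.01e-08). The low fall lost its call without low dish 2 (-0.84, limma adjusted p 0.0868). High differed from middle by -2.56 ± 0.23 (0.000137), and middle from low by -1.18 ± 0.23 (0.0751), which missed the threshold. Its high effect without high dish 1 was -4.66.

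The growing rises with the largest high effects were 1370902_at and 1387455_a_at. The probe set 1370902_at read 8.22, 8.46 and 8.48 on the treated arrays at low and 9.06, 8.90 and 8.83 at middle, against controls between 8.10 and 8.74. At high the controls read 6.77, 8.29 and 7.99 and the treated arrays 9.61, 12.02 and 11.64. Dish 1 was lower than the other dishes on both its control and its treated array, and the groups at high did not overlap. The changes were 0.13 ± 0.16 (SE, limma adjusted p 0.798), 0.52 ± 0.16 (0.133) and 3.41 ± 0.16 (9.66e-08), a 10.6-fold rise at high. Its high effect without dish 1 was 3.69.

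For 1387455_a_at the controls lay between 4.88 and 5.54 at low and middle and read 3.66, 4.32 and 4.75 at high. The treated arrays read 5.29, 6.04 and 6.35 at low, 6.57, 6.65 and 6.15 at middle, and 7.65, 7.66 and 7.51 at high. Treated arrays lay above the controls of their concentration at every level. The changes were 0.88 ± 0.24 (SE, limma adjusted p 0.0953), 1.13 ± 0.24 (0.0278) and 3.37 ± 0.24 (2.01e-06), the last 3.05 without high dish 1. The high controls were below the other controls, which adds to the change at high, and the treated arrays at high were above those at middle and low.

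**Figure D3:**
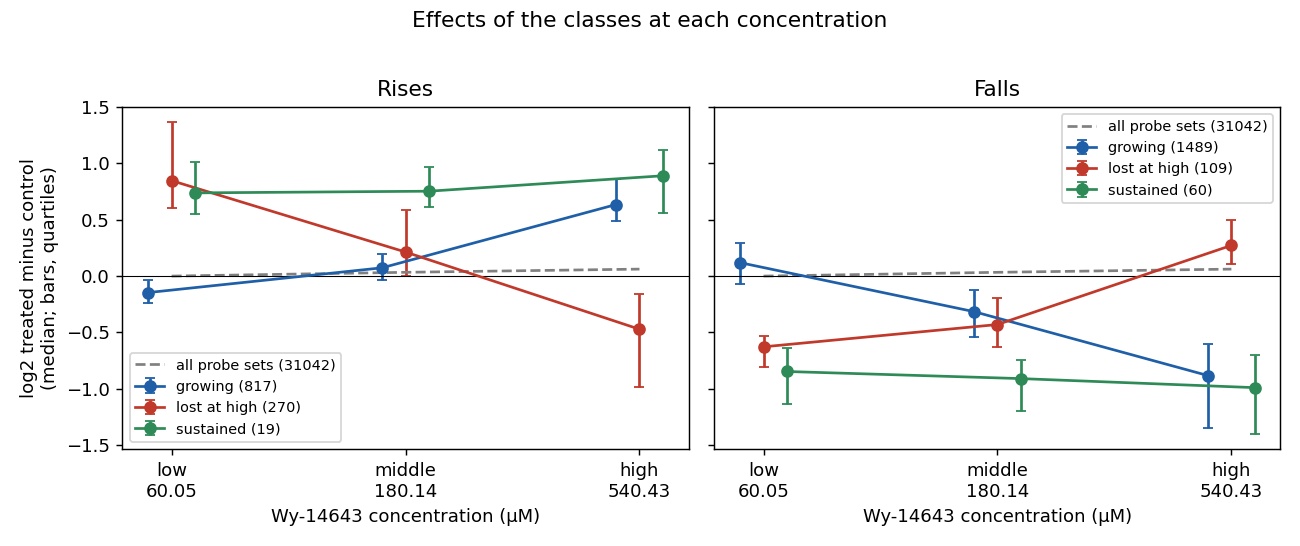
Median log2 effect of each class (points) with its quartiles (bars) at the 3 concentrations, for rises (left) and falls (right); the dashed line is the median of all 31042 probe sets. The lost rises go from 0.85 at low to -0.47 at high, while the growing falls go from 0.12 to -0.88.

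Loss at the high concentration involved 270 rises (0.87% of probe sets tested) and 109 falls (0.351%). Of the 366 rises at low, 267 were lost, and the other 3 lost rises had their larger effect at the middle concentration. The lost rises had median effects of 0.85, 0.21 and -0.47 at low, middle and high, and in 260 of the 270 the middle effect lay between the other two. At 180.14 µM 72 of the 270 were called in either direction, where 2.71% of all probe sets were. Of all 366 rises at low, 102 were called as rises and 9 as falls at middle, beside 0.606% and 2.11% of all probe sets. Of the 270, 108 had risen at least 2-fold at low.

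The single high dishes were compared over all 366 rises at low, which were not chosen by their high effects. Of these, 268 had an effect below 0 in high dish 1, 217 in dish 2 and 220 in dish 3, with medians of -0.48, -0.14 and -0.17. Among all 31042 probe sets 12633, 12841 and 13021 were below 0, with medians of 0.06, 0.05 and 0.05. The 270 lost rises, for which low values at high are part of the rule, had medians of -0.75, -0.30 and -0.37, and their median over dishes 2 and 3 together was -0.32. The class held, without high dish 1, 256 rises and 100 falls, of which 222 and 79 were in the class of all dishes. Without low dish 2 it held 145 rises and 41 falls.

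The lost rise with the largest effect, called the leading lost rise here and drawn first in the plot of levels, had the largest rise of all probe sets at both lower concentrations. It read 3.35, 3.32 and 3.28 on the low controls and 12.70, 12.57 and 12.37 on the low treated arrays. It read 3.61, 3.51 and 3.50 on the middle controls and 11.15, 11.06 and 11.36 on the middle treated arrays. At high the controls read 8.10, 3.35 and 3.42 and the treated arrays 6.41, 5.28 and 5.41. The low and middle treated arrays were above all controls, and the high treated arrays were below every low and middle treated array, while high control 1 lay above every high treated array. The low and middle controls were below 4.26, the lower quartile of all probe sets on the controls of other compounds, which is near the floor of the array, so no linear fold is given. The changes were 9.23 ± 0.51 (SE, limma adjusted p 3.57e-06), 7.65 ± 0.51 (1.38e-05) and 0.75 ± 0.51 (0.376), and high differed from low by -8.48 ± 0.72 (2.33e-05). Without high dish 1 the high effect was 1.96 (limma adjusted p 2.5e-06), a called rise, and the difference from low was -7.27 (3.94e-09). This probe set was therefore lost in part in dishes 2 and 3, and met the rule for loss only with dish 1.

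The next was 1368283_at, which turned from a rise to a fall. It read 6.29, 6.75 and 6.54 on the low controls and 12.25, 12.20 and 12.42 on the treated arrays. It read 6.30, 6.64 and 6.18 on the middle controls and 8.76, 9.07 and 8.93 on the treated arrays. At high the controls read 11.04, 6.70 and 6.55 and the treated arrays 5.86, 4.72 and 4.82. The high treated arrays were below every control of every concentration, and high control 1 lay between the middle and the low treated arrays. The changes were 5.76 ± 0.47 (SE, limma adjusted p 4.96e-05), 2.55 ± 0.47 (0.0126) and -2.96 ± 0.47 (0.00104). Without high dish 1 the high effect was -1.85 (1.47e-05), so the fall at high was called in both cases.

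**Figure D4:**
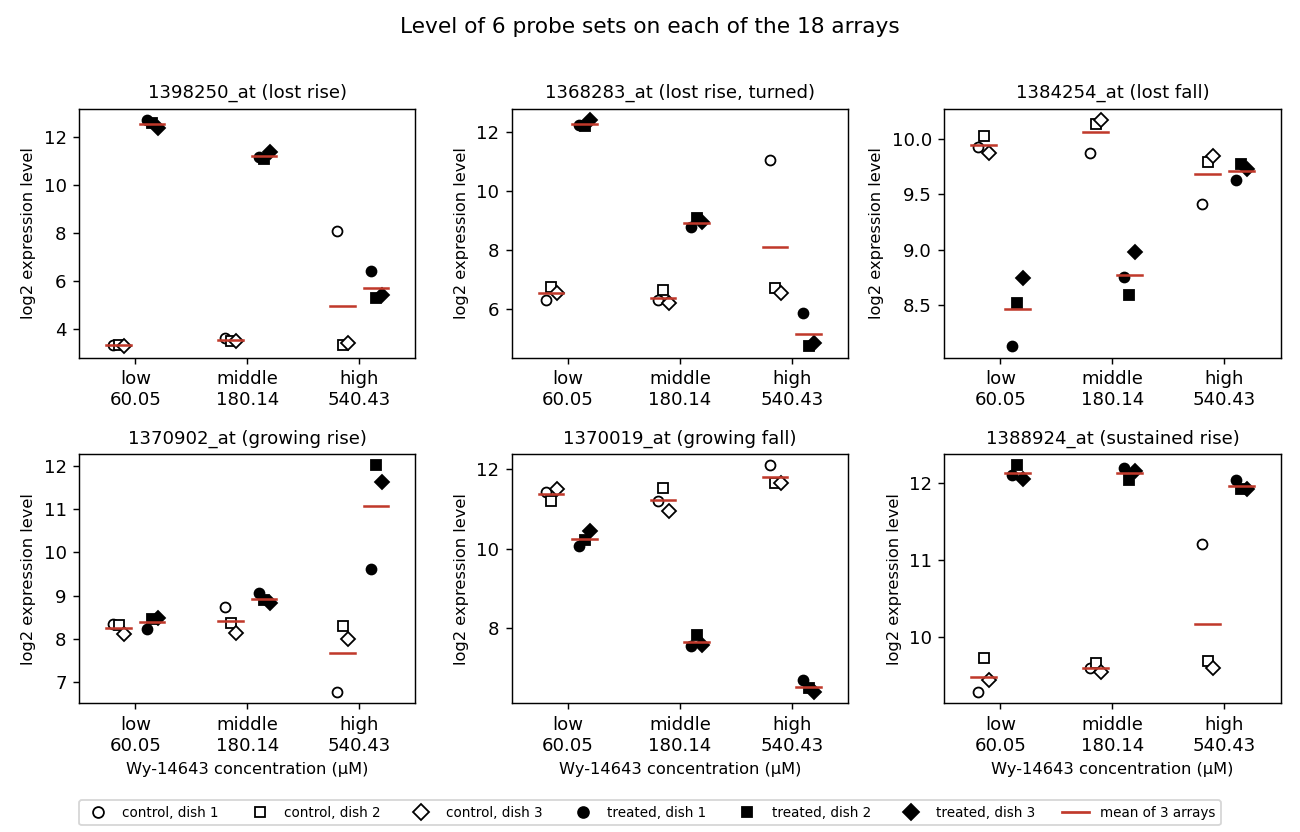
Log2 level of 6 probe sets on each array by concentration; open symbols are solvent controls, filled symbols treated arrays, the symbol shape gives the dish and the red line the mean of 3 arrays. The 2 lost rises are far above their controls at low and middle. At high, control 1 (open circle) stands apart at 8.10 and 11.04. There the first lost rise is still above its controls in dishes 2 and 3 (5.28 and 5.41 against 3.35 and 3.42), and the turned one is below its control in every dish.

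The probe sets whose 9 dish differences were most like those of the leading lost rise were 1379361_at and 1370939_at (Pearson r of 0.996 for both, over 9 dishes). The probe set 1379361_at had effects of 2.46 ± 0.18, 1.74 ± 0.18 and -0.77 ± 0.18, with limma adjusted p of 2.59e-05, 0.000262 and 0.0105, and its high effect was -0.40 (0.0433) without high dish 1. Its high treated arrays read 8.02, 8.01 and 8.05, below all 9 controls, of which high control 1 was the highest at 9.53. The probe set 1370939_at had effects of 4.15 ± 0.33, 3.12 ± 0.33 and -0.14 ± 0.33 (4.3e-05, 0.000326 and 0.824). Its high treated arrays read 9.14, 9.06 and 8.87 against controls of 10.80, 8.49 and 8.20. Its high effect was 0.62 without dish 1 (limma adjusted p 0.0073), a call in the other direction from the value with all dishes.

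A part of the lost probe sets went beyond loss and was called at high in the opposite direction. These turned probe sets were 144 of the 270 lost rises and 39 of the 109 lost falls. The rule for loss uses the high effect and favours such calls, so these counts are descriptions. Of all 366 rises at low, which were not chosen by their high effects, 147 were called as falls at high, beside 8.51% of all probe sets. Of all 286 falls at low, 36 were called as rises at high, beside 7.82% of all probe sets. Both counts use high dish 1, whose control departed over these probe sets, and were not recomputed without it. In both dishes 2 and 3, 199 of the 366 had an effect below 0, as had 8412 of all 31042 probe sets. The turned rises had medians of 0.84, 0.12 and -0.91. Of them 143 also met the rule for growing falls. The other 126 lost rises had medians of 0.86, 0.31 and -0.14. There were 122 turned rises without high dish 1, 99 of them shared, and 38 turned falls, 22 of them shared. Leaving out low dish 2 gave 86 turned rises and 17 turned falls. With arrays taken as unpaired there were 103 and 14, and 124 and 15 when high control 1 was left out as well (98 and 8 shared).

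The lost falls were smaller and fewer. Their medians were -0.63, -0.43 and 0.27, 88 came from the low and 21 from the middle concentration, and 14 had fallen at least 2-fold at low. The high median was 0.27 without high dish 1 too, but 0.06 with arrays unpaired and high control 1 alone left out, where the median of all probe sets was 0.06 and 44 of the 109 were below 0. With arrays taken as unpaired the class held 53 falls, 42 of them shared, so it depended more on the pairing than the lost rises, which numbered 211 with 201 shared. The lost fall with the largest effect was 1384254_at. It read 9.93, 10.03 and 9.87 on the low controls and 8.13, 8.52 and 8.74 on the treated arrays. It read 9.87, 10.14 and 10.17 on the middle controls and 8.75, 8.59 and 8.98 on the treated arrays. It read 9.42, 9.79 and 9.85 on the high controls and 9.63, 9.77 and 9.72 on the treated arrays, where the groups overlapped. The changes were -1.48 ± 0.13 (SE, limma adjusted p 8.01e-05), -1.29 ± 0.13 (0.000264) and 0.02 ± 0.13 (0.931), and high differed from low by 1.5 ± 0.18 (0.000302). Its high effect without high dish 1 was -0.07. For 1376066_at they were -1.43 ± 0.20, -1.20 ± 0.20 and -0.09 ± 0.20, with limma adjusted p of 0.00263, 0.00634 and 0.813, and the high effect was -0.12 without high dish 1.

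Few effects kept 1 size across the range: 19 sustained rises (0.0612% of probe sets tested) and 60 sustained falls (0.193%). The sustained rises had medians of 0.74, 0.75 and 0.89 and the sustained falls -0.85, -0.91 and -0.99. Leaving out low dish 2 gave 21 sustained falls, 17 of them shared, and 19 sustained rises, 13 of them shared, and without high dish 1 there were 80 and 20. A difference that was not called does not show equal effects. The sustained rise with the largest mean effect was 1388924_at, whose treated arrays lay between 11.92 and 12.23 at all concentrations. Its controls lay between 9.29 and 9.72, except high control 1 at 11.21. The changes were 2.65 ± 0.22 (SE, limma adjusted p 5.46e-05), 2.53 ± 0.22 (8.51e-05) and 1.80 ± 0.22 (0.000153), and the last was 2.28 without high dish 1. Next came 1388210_at with 2.03 ± 0.17, 1.78 ± 0.17 and 1.63 ± 0.17 (4.96e-05, 0.00014 and 3.55e-05), the last 1.85 without high dish 1.

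Neither leading sustained fall kept its class under every alternative. The probe set 1385016_at read 7.08, 6.89 and 7.11 on the low treated arrays, 6.60, 6.77 and 7.0 at middle and 4.63, 4.96 and 4.92 at high. Its controls lay between 9.60 and 10.22, except high control 1 at 6.28. The high treated arrays were below those of the other concentrations. The changes were -2.97 ± 0.50 (SE, limma adjusted p 0.0098), -3.01 ± 0.50 (0.00663) and -4.03 ± 0.50 (0.000171), and high minus low was -1.07 ± 0.71 (0.414). Without high dish 1 that difference was -2.26 (limma adjusted p 2.26e-05). Without low dish 2 the fall at low was -2.89 and missed the threshold (0.0957). For 1370912_at the changes were -2.40 ± 0.28, -3.29 ± 0.28 and -3.60 ± 0.28, and high minus low went from -1.19 (limma adjusted p 0.0811) to -1.72 (0.0032) without that dish. With all dishes and the replicate number as a block across the concentrations, -1.19 was called too (limma adjusted p 0.014). The high effects without high dish 1 were -5.22 for 1385016_at and -4.13 for 1370912_at.

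The control genes on the array, whose names are part of their IDs, changed at the high concentration. In a fit that included the array's control probe sets, the 3′ probe set of GAPDH, an enzyme of glycolysis, read 11.62, 11.63 and 11.55 on the high controls and 10.70, 10.91 and 10.38 on the treated arrays. This was a change of -0.94 ± 0.14 (SE, limma adjusted p 0.000729). The 3′ probe set of beta-actin, a protein of the cytoskeleton, read 12.51, 12.25 and 12.24 on the controls and 11.61, 11.72 and 11.64 on the treated arrays, a change of -0.68 ± 0.13 (0.0036). The groups of neither 3′ probe set overlapped at high, and both 3′ probe sets kept their direction and call after quantile normalization (-0.85 and -0.59) and without high dish 1 (-0.95 and -0.57). The 5′ probe sets of GAPDH (-1.09, limma adjusted p 0.0146) and beta-actin (-0.95, 0.0129) were called with all dishes and missed the threshold without high dish 1 (-1.10, 0.0703 and -0.90, 0.0771).

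The 5S rRNA, a component of the ribosome that has no poly-A tail, read 7.61, 7.28 and 7.65 on the high controls and 8.83, 9.09 and 9.73 on the treated arrays. It changed by 1.70 ± 0.34 (SE, limma adjusted p 0.00483), and by 1.95 without high dish 1 (0.0129). Low control 2, the array with the wide 3′ to 5′ difference, read 9.24, within the range of the high treated arrays, while the other 8 controls lay between 7.28 and 7.96. Whether RNA quality has a part in this change was not tested. None of the 3 hexokinase probe sets was called at any concentration, with high effects of 0.17 (3′), -0.03 (middle of the transcript) and -0.06 (5′). Their mean levels on the high controls were 4.25, 5.51 and 3.34 in the same order. The 3′ and 5′ probe sets were thus below 4.26, the lower quartile given above, where a fall could go unseen. None of these control probe sets was called at low or middle. The 3′ to 5′ difference of GAPDH was 0.68 to 0.76 on the high treated arrays and 0.51 to 0.59 on their controls, and its part in the results was not tested.

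The probe sets of the classes were also compared before and after culture, as T0 arrays (cells at the start of incubation, 34 arrays) against 247 solvent controls of the other compounds, none of which entered the classes. The level after culture was higher for 189 of the 270 lost rises (70.0%) and 14 of the 19 sustained rises (73.7%), against 50.5% of all probe sets. It was higher for 29 of the 109 lost falls (26.6%) and 16 of the 60 sustained falls (26.7%). The growing rises (54.0%) and growing falls (56.7%) lay nearer to the share of all. The median change in culture was 0.15 for the lost rises, 0.37 for the sustained rises, -0.39 for the lost falls and -0.60 for the sustained falls. The median level of these classes on the same controls was 7.69, 8.95, 6.45 and 8.61, against 5.45 for all probe sets. The share of all thus comes from dimmer probe sets and is not matched for level. These shares are descriptions over probe sets, which are not independent of each other.

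Other compounds of the series gave values for the same probe sets on arrays that did not enter the classes, though these compounds were singled out with such values known. Their concentrations differ from those of Wy-14643, so values are set side by side without a test. Over the 270 lost rises, ibuprofen, a cyclooxygenase inhibitor, had median effects of 0.61 at 102 µM, 0.53 at 306.67 µM and 0.12 at 920 µM. It raised 91, 94 and 76 of them (33.7%, 34.8% and 28.1%), where it raised 0.409%, 1.36% and 6.42% of all probe sets, and at 920 µM 35 fell, where 10.7% of all did. The 91 made up 71.7% of the 127 rises of ibuprofen at 102 µM. Piperonylbutoxide, an insecticide synergist that inhibits cytochrome P450 enzymes, had medians of 0.10 at 3.52 µM, 0.45 at 10.56 µM and 0.42 at 31.69 µM. It raised 0, 71 and 100 of the 270, against 0%, 0.358% and 0.992% of all, and the 71 were 64.0% of its 111 rises at 10.56 µM. For dehydroepiandrosterone, a steroid, the medians were 0.20 at its low and 0.27 at its middle concentration, with no probe set of the table called.

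Medians over these probe sets were above 0.2 with few other compounds. Of the 83 pairs of another compound and concentration, 5 had a median above 0.2 over the lost rises, all from those 3 compounds. Calls were more widely spread: 2-NF at its high concentration raised 46 of the 270 (17%, against 2.14% of all), and 2AAF at its low one raised 65 (24.1%, against 14% of all). The lowest median, -0.53, was that of the high concentration labelled Aap. The effects on the leading lost rise were 7.60, 5.64 and 5.86 with ibuprofen, each called, and 0.18, 3.81 and 5.07 with piperonylbutoxide, the last 2 called. For 1368283_at the ibuprofen values were 4.49, 3.42 and 2.5 and those of piperonylbutoxide 0.72, 4.11 and 3.67, and it was called up with 6 other compounds and down with 10. Among the 247 solvent controls of other compounds the leading lost rise had a median of 3.32 and reached 6.96, so high control 1 at 8.10 was the highest of all 256 controls.

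Growing falls were lower with several other compounds too. Over these 1489 probe sets 11 of the 83 pairs had a median under -0.2, the lowest again the high concentration of Aap at -0.76. Ibuprofen at 920 µM had a median of -0.50 and lowered 693 of them (46.5%), where it lowered 10.7% of all probe sets, while at 306.67 and 102 µM it lowered 44 and 11, against 0.519% and 0.209% of all. The growing rises had smaller counterparts: their highest medians elsewhere were 0.28 and 0.21, for the high concentrations labelled CIDB and DES, and ibuprofen at 920 µM raised 162 of the 817 (19.8%, against 6.42% of all). CIDB at its high concentration raised 322 of them (39.4%, against 7.23% of all) and DES 254 (31.1%, against 5.26%). Of the single probe sets, 1370019_at was called down with 15 other compounds and 1370902_at called up with 7. The probe set 1387455_a_at was called down with 11 other compounds and up with 2, and ibuprofen at 920 µM lowered it by -2.04. The sustained rises had medians of 0.50, 0.84 and 0.71 with ibuprofen at its 3 concentrations, the 3 highest of the 83 pairs.

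**Figure D5:**
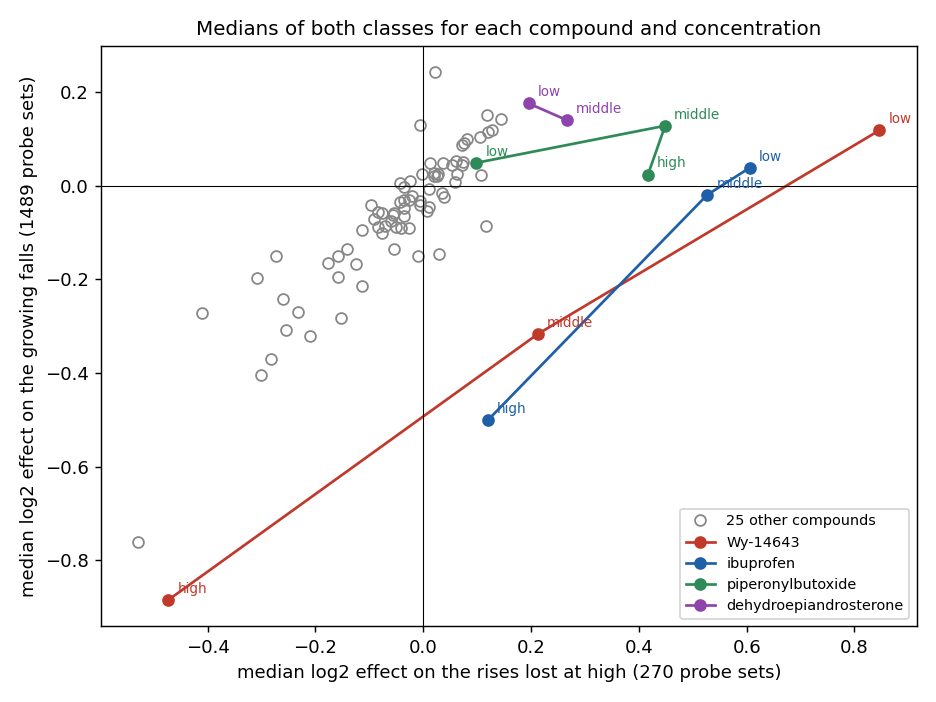
Median log2 effect over the 270 rises lost at high (horizontal) against that over the 1489 growing falls (vertical) for each compound and concentration; 143 probe sets are in both lists, lines join the concentrations of 1 compound, and open circles are the 25 compounds not named. Wy-14643 runs from 0.85 and 0.12 at low to -0.47 and -0.88 at high, and ibuprofen from 0.61 and 0.04 to 0.12 and -0.50.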

How the data were processed

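The deposited values are on a log2 scale, as read from their range. They came from RMA, per the submitters' processing notes; its version is not given here. The 57 array control probe sets were left out of the main fit. R 4.3.3 and limma 3.58.1 (lmFit, eBayes) were fitted to within-dish differences of all 9 dishes, with contrasts for each concentration and between concentrations. Each change at a concentration is the mean of 3 dishes, and errors after ± are limma's moderated standard errors. Their spread was estimated from all 9 dishes together, so a probe set has the same error at each concentration. High dish 1 therefore also enters the errors and p-values at low and middle. For the leading lost rise the error at low was 0.51 with all dishes and 0.10 without high dish 1. Named probe sets are, per class, up to 2 rises and 2 falls with the largest effects, changed in 1 direction in every dish, and the 2 most like the leading lost rise. The members, classes and lists were chosen with earlier results of these data known. Pathway and cell type lists were not applied, because probe sets carry no gene names here. The classing was tested on simulated data with noise drawn independently for each probe set and dish. A departure shared by many probe sets of 1 array, as on high control 1, was not simulated, so that test does not cover it. Same-numbered treated and control arrays deviated together at high (r 0.216 to 0.455) but not reliably at middle and low (-0.321 to 0.368); the pairing comes from the design text. The alternatives were other scalings, filters, variance models and left-out dishes.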

Additional observations from a re-analysis of the deposited data

Results flagged for a closer look

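Among the 9 solvent control arrays of Wy-14643, high control 1 lay far from the others for several named probe sets. Chance gives such a gap in about 1 of 20 groups, and the probe sets are not independent. It was the highest array at 8.10 for the leading lost rise (next 3.61), at 11.04 for 1368283_at (next 6.75), at 11.21 for 1388924_at (next 9.72), at 9.53 for 1379361_at (next 8.55) and at 10.80 for 1370939_at (next 8.49). It was the lowest at 6.77 for 1370902_at (next 7.99), at 9.42 for 1384254_at (next 9.79) and at 6.28 for 1385016_at (next 9.60).

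For 2 named probe sets the effects at low and high were called in opposite directions, and the difference was called too. High minus low was -8.72 ± 0.67 for 1368283_at (limma adjusted p 1.05e-05) and -3.23 ± 0.25 for 1379361_at (1.07e-05). Without high dish 1 these differences were -7.61 and -2.86.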

How the results depend on the processing

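Of 116 recomputed counts, 74 stayed within 1.5 times the value reported, and of 686 recomputed effects of named probe sets 642 kept direction and call. Leaving out the dishes of 1 replicate number, or 1 dish, gave 2031 to 4980 calls at high, 97 to 987 at middle and 117 to 1180 at low. For the differences it gave 918 to 3076 between high and low, 88 to 1093 between high and middle and 0 to 178 between middle and low. The growing class then held 760 to 2101 probe sets, the lost class 78 to 550 and the sustained class 8 to 138; each lowest value was without replicate 2 at all concentrations, and the cause was not tested. With high dish 1 and low dish 2 both left out, which was chosen after seeing the data, the calls were 3097 at high and 342 at low, the differences 1657 (high and low) and 749 (high and middle), and the classes held 1318 growing and 210 lost. With the spread pooled over all compounds there were 3279 calls at high, 1945, 722 and 129 differences in the order above, and 1531 growing probe sets. Without the replicate block, so with arrays not paired, there were 5013, 781 and 494 calls at high, middle and low, 2883, 1004 and 38 differences, and 264 lost probe sets. Quantile normalization gave 37 differences between middle and low, and leaving out high control 1 with unpaired arrays gave 199. Of the lost probe sets 123 had changed at least 2-fold at the lower concentration. The high effect of 1370939_at turned from -0.14 to 0.62 without replicate 1, without high dish 1 alone and without both doubtful dishes, was -0.55 without replicate 3, and to 0.68 with unpaired arrays without high control 1. With 3 dishes a group, and values near the floor of the arrays, small effects can go uncalled. Averaging the probe sets of a gene was not run, since no gene names are given here.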
